A study of Arabidopsis thaliana with 12 samples.

Results

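FRK1, NHL10, RBOHD, PHI-1, PROPEP1, PROPEP2, PROPEP3, PEPR1 and PEPR2 are Arabidopsis thaliana genes that act in, or are switched on by, the recognition of microbes and of damage at the cell surface. They were taken by locus identifier, and all 9 were found among the 32833 loci of the deposited count tables. Of the 9 genes, 8 passed the filter on low counts and were tested; PROPEP2 did not. RNA was sequenced from Col-0 plants with a stable transgene for GFP alone (Control), for Mlp37347 fused to GFP or for Mlp124499 fused to GFP. Mlp37347 and Mlp124499 are candidate secreted effectors of Melampsora larici-populina, the rust fungus of poplar. All 3 groups, Control included, also carried BAR, a herbicide resistance gene, and no untransformed plants are compared here. Shoots of plants grown in soil at 22 °C with 16 h of light daily were pooled at an age of 15 days after germination, and each group had 4 libraries. The sources used here do not give the promoter of the transgenes, the number of independent lines per construct or the hour of harvest. No label says that the libraries of a group came from separately grown plants, so p-values reflect only how far these samples differ, which may be technical.

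Plant cells detect conserved microbial molecules and peptides released by damaged cells with receptor kinases at the plasma membrane. Receptor activation sets off calcium influx, a burst of reactive oxygen species, mitogen-activated protein kinase cascades and the transcription of defence genes, many of them through WRKY transcription factors, which bind the W-box. PROPEP genes encode the precursors of Pep peptides, which are released on damage and are bound by the receptors PEPR1 and PEPR2, so that the pathway amplifies immune signalling. RBOHD is the NADPH oxidase that makes most of the oxidative burst, FRK1 and NHL10 are widely used marker genes of early immune transcription, and PHI-1 encodes a member of the EXORDIUM family that is also read as an early response gene.

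The sequences just upstream of the genes are shown because W-boxes are the best-known promoter word of this response. Windows of 250 bases before the annotated start of each gene were read from RefSeq's TAIR10.1 for FRK1 (chr2:8329945-8330194, minus strand), NHL10 (chr2:15110242-15110491, plus strand) and PROPEP3 (chr5:25939312-25939561, plus strand), the 3 genes past the threshold in the Mlp37347 line. PROPEP3 passed the filter on low counts through its Control libraries alone, which favoured a fall, and is left out of the counts of genes below. Each is written 5′ to 3′ on the strand of the gene, and capitals mark W-boxes, searched as TTGACC or TTGACT on both strands.

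FRK1: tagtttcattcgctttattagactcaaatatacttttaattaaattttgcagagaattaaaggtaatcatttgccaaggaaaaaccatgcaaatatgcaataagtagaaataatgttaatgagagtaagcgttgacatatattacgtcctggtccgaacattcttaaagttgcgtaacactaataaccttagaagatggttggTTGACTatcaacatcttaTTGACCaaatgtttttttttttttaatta

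NHL10: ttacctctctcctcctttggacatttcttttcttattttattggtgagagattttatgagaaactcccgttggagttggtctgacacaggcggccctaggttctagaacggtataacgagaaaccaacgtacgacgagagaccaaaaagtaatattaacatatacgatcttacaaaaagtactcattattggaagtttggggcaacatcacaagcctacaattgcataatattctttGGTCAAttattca

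PROPEP3: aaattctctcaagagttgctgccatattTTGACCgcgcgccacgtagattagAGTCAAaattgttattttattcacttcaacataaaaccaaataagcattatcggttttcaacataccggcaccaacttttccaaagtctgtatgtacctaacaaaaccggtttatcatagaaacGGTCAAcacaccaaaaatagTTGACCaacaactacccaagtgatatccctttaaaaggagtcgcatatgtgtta

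A W-box was present in the windows of 8 of the 9 genes, all but PEPR2, and in 28.4% of the windows of all 27443 protein-coding genes. At least 2 W-boxes were found in 4 of the 9 windows (FRK1, PROPEP2, PROPEP3 and PEPR1), against 6.18% of all windows. The PROPEP3 window held 4, at 222, 198, 74 and 54 bases upstream of the gene start, and 1.06% of all windows held 3 or more. Of the other words searched, on both strands and with overlaps counted, CGCGT was in 2 of the 9 windows (PHI-1 and PROPEP1) against 6.87% of all, the G-box CACGTG in 1 (PEPR1) against 6.49%, and the evening element AAAATATCT in 0 of 9 against 2.36%. The PEPR1 window overlaps the neighbouring locus AT1G73066. A match to a word is a description of these windows and not a measurement of binding.

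**Figure D1:**
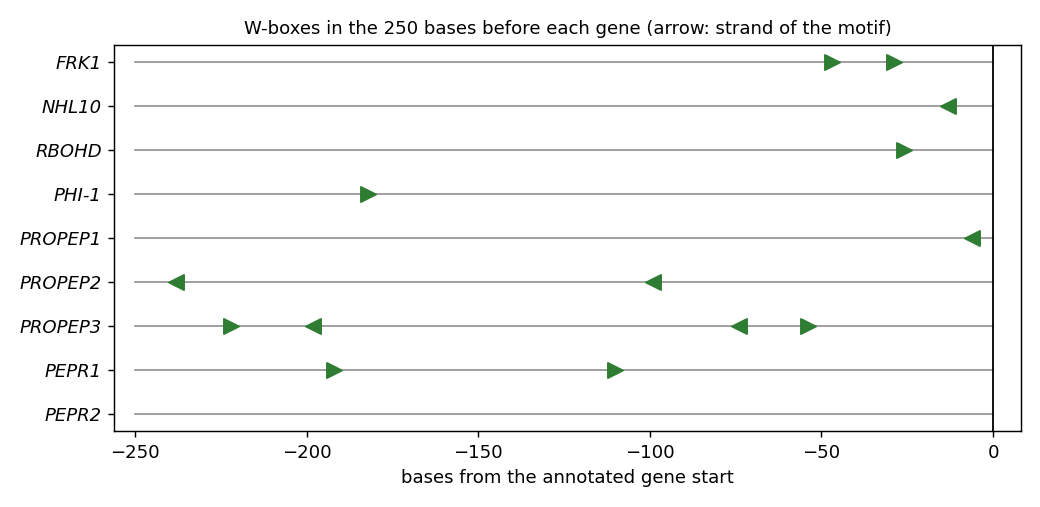
Positions of W-boxes in the 250 bases before the annotated start of each of the 9 genes, with distance from the start in bases on the horizontal axis. PROPEP3 has 4 W-boxes, FRK1, PROPEP2 and PEPR1 have 2 each, 4 genes have 1, and PEPR2 has none.

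Several libraries stood apart from the others. Libraries held 6645703 to 37378917 counts (Control), 12368262 to 24483245 counts (Mlp37347) or 10813288 to 14733894 counts (Mlp124499). Mlp37347 1, 2 and 3 had a mate inner distance of 110 to 115 bp, against 50 to 84 bp in the other 9 libraries, and their counts were close to one another (chi-square divided by its degrees of freedom, 2.82 to 6.27) but far from those of Mlp37347 4 (154 to 208). Mlp124499 1 and 2 were also close (6.94). The aligned share of trimmed reads was 57.6% for Control 1 and 88.0 to 95.5% elsewhere. The morning clock gene LHY was at 66.1 to 91.7 CPM in Mlp124499 1, 2 and 3 but at 470 CPM in Mlp124499 4, within the Control range of 372 to 516 CPM. Mlp37347 4, at 92.6 CPM, was above the other Mlp37347 libraries (19.2 to 24.1 CPM). The evening gene PRR5 was at 1.75 CPM in Mlp124499 4, against 59.2 to 64.3 CPM in the other 3 libraries of that line. The summed level of 6 leaf marker genes was 19947 to 40792 CPM in the 12 libraries, as the label of shoot tissue would have it, and those of 5 root and 4 flower marker genes were 0.133 to 2.66 CPM and 1.34 to 3.79 CPM. CPM are counts per 1000000 counts of the library after TMM scaling, and all levels are in this unit unless said otherwise. In bulk tissue, fewer cells expressing a gene and less RNA per cell cannot be told apart.

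PROPEP3 passed the filter on low counts through its Control libraries alone, so it had to be lower elsewhere and is left out of these counts. Of the other 7 genes tested, 2 fell in the Mlp37347 line (FRK1 and NHL10) and 0 rose, where 5.42% of the 19090 genes tested fell and 3.19% rose. In the Mlp124499 line, 1 of the 7 fell (NHL10) and 0 rose, against 2.71% and 1.56% of all genes tested. The median log2 fold change of the 7 genes was -0.74 for Mlp37347 and -0.85 for Mlp124499, beside 0.01 and -0.01 over all genes. The shares over all genes themselves depend on single libraries. The 1035 genes lower and 609 higher in Mlp37347 became 2158 and 2245 without Mlp37347 4, and as few as 401 lower (without Mlp37347 1) and 222 higher (without Control 3). For Mlp124499, 518 lower and 297 higher became 1085 and 793 without Mlp124499 4, and as few as 148 lower (without Mlp124499 2) and 89 higher (without Control 3). Both comparisons use the same 4 Control libraries.

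**Figure D2:**
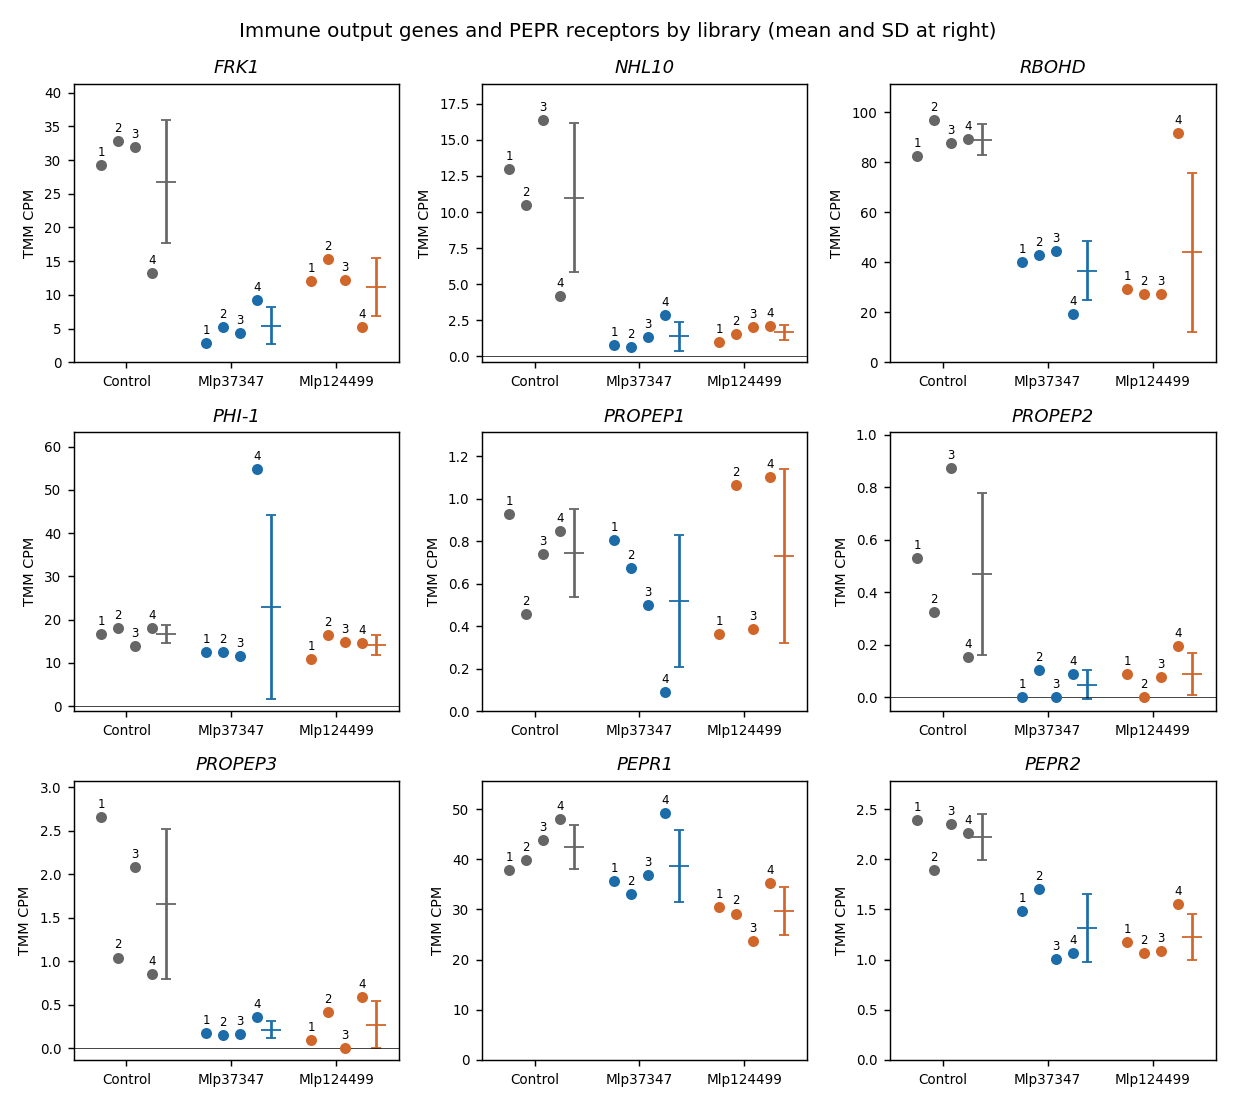
Level of each of the 9 genes in every library, in TMM-scaled CPM, with points for libraries and the mean and SD of each group of 4. FRK1, NHL10 and PROPEP3 lie lower in all 4 Mlp37347 libraries than in any Control library, while RBOHD in Mlp124499 4 (91.8 CPM) and PHI-1 in Mlp37347 4 (54.8 CPM) lie away from the other libraries of their groups.

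FRK1 (AT2G19190, chr2:8326049-8329944, minus strand, 13 coding exons) encodes a leucine-rich repeat receptor kinase whose transcript is induced by bacterial flagellin. In Control libraries 1 to 4 it was at 29.2, 32.8, 31.9 and 13.3 CPM. In Mlp37347 it was at 2.79, 5.22, 4.34 and 9.23 CPM, and in Mlp124499 at 12.1, 15.3, 12.2 and 5.19 CPM. All 4 Mlp37347 libraries were below the lowest Control library, which was Control 4, whereas Mlp124499 2 exceeded Control 4. FRK1 fell 5.0-fold in Mlp37347, a log2 fold change of -2.32 ± 0.42 (SE) with an adjusted p of 0.00635 in edgeR's quasi-likelihood test. The difference for Mlp124499, -1.26 ± 0.40, had an adjusted p of 0.110 in the same test. It passed the threshold with DESeq2 (adjusted p = 0.0428), with limma voom (0.00143) and without the 4th libraries of both effector lines (-0.97, 0.0469). FRK1 overlaps AT2G19180 on the opposite strand over 175 bp, and the counting setting for strand is not given in the sources used here.

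NHL10 (AT2G35980, chr2:15110492-15111539, plus strand, 1 exon) encodes a small membrane protein of the NDR1/HIN1-like family. Its Control values were 13.0, 10.5, 16.4 and 4.16 CPM. In Mlp37347 it was at 0.762, 0.671, 1.34 and 2.84 CPM and in Mlp124499 at 0.998, 1.56, 2.01 and 2.07 CPM. Every library of both effector lines was below the lowest Control library, again Control 4. NHL10 fell 8.07-fold in Mlp37347 (log2 -3.01 ± 0.51, adjusted p = 0.00474, edgeR) and 6.52-fold in Mlp124499 (log2 -2.70 ± 0.50, adjusted p = 0.0105, edgeR). Without Mlp124499 2 the log2 fold change in Mlp124499 was -2.62 with an adjusted p of 0.0534, so the call was lost at nearly the same fold.

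The FRK1 and NHL10 calls in Mlp37347 both rest on the 3 libraries with the long mate inner distance. With Mlp37347 4 as the only library left of that line, assumed to vary like those of the other groups, the log2 fold changes were -1.51 (adjusted p = 0.202, edgeR) for FRK1 and -1.92 (adjusted p = 0.163, edgeR) for NHL10. Whether the library difference plays a part in the result was not tested.

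RBOHD (AT5G47910, chr5:19397041-19402061, plus strand, 8 coding exons) was at 82.3, 97, 87.5 and 89.4 CPM in Control. In Mlp37347 it was at 39.9, 42.8, 44.5 and 19.2 CPM, below every Control library. In Mlp124499 it was at 29.4, 27.3 and 27.4 CPM in libraries 1 to 3 and at 91.8 CPM in library 4, which lies inside the Control range. The log2 differences were -1.28 ± 0.39 for Mlp37347 (adjusted p = 0.0602, edgeR) and -1.02 ± 0.39 for Mlp124499 (adjusted p = 0.195, edgeR), neither past the threshold. The Mlp37347 difference passed with DESeq2 (adjusted p = 0.0163), with limma voom (1.27e-06), in the fit of those 2 groups alone (0.0148, edgeR) and with total-count scaling (0.0400, edgeR). The Mlp124499 difference passed with limma voom (-1.69, adjusted p = 2.49e-07). Without Mlp124499 4, RBOHD was lower in Mlp37347 (log2 -1.24, adjusted p = 0.00468, edgeR) and in Mlp124499 (log2 -1.62, adjusted p = 0.00216, edgeR). The library with the high RBOHD value is the one whose LHY and PRR5 levels were those of Control, and the part of the clock in the RBOHD difference was not tested.

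Most of the other NADPH oxidase genes had too few counts to be tested. Of 9 other RBOH genes, 3 passed the filter, and RBOHC (also called RHD2), known for root hair growth, fell in both lines (log2 -2.27 ± 0.53, adjusted p = 0.0213, and -2.68 ± 0.55, adjusted p = 0.0174, edgeR). Over all genes tested, 5.42% fell in Mlp37347 and 2.71% in Mlp124499. RBOHC was at 1.87 to 6.38 CPM in Control, 0.532 to 1.0 CPM in Mlp37347 and 0.0774 to 0.973 CPM in Mlp124499. Every Control library was above the filter's minimum of 0.713 CPM, while both effector ranges reached below it. RBOHC thus entered the test with the help of Control, which favoured a fall, so its p-values are no independent support for one. Its call was lost in Mlp37347 without Control 2, Control 3 or any of Mlp37347 1, 2 and 3, and in Mlp124499 without Control 3, Mlp124499 1 or Mlp124499 2. RBOHF, the other oxidase with a known role in immunity, was at 16.0 to 22.0, 12.2 to 29.5 and 11.5 to 18.8 CPM, with overlapping groups.

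PHI-1 (AT1G35140, chr1:12851983-12853235, plus strand, 1 exon) was at 16.6, 18.1, 13.8 and 18.1 CPM in Control. Mlp37347 had 12.6, 12.4, 11.6 and 54.8 CPM, and Mlp124499 had 10.8, 16.4, 14.7 and 14.6 CPM. Mlp37347 4 was the highest of the 12 libraries, while the other 3 Mlp37347 libraries were below every Control library. The log2 differences were 0.45 ± 0.44 (adjusted p = 0.566, edgeR) for Mlp37347 and -0.24 ± 0.44 (adjusted p = 0.883, edgeR) for Mlp124499. Without Mlp37347 4 the direction in Mlp37347 reversed, to -0.41. With limma voom the PHI-1 difference in Mlp37347 was -0.45 and passed (adjusted p = 0.0150). With Mlp37347 4 as the only library of that line, it was 1.74. Of its 6 relatives tested, EXO, EXL2 and EXL4 were highest of their line in Mlp37347 4, at 74.5, 411 and 185 CPM. EXL3, EXL5 and EXL7 were lowest of their line in that library, at 133, 34.7 and 0.266 CPM.

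The Pep precursor genes PROPEP2, PROPEP1 and PROPEP3 lie in that order within 5513 bp of chromosome 5, all on the plus strand and with no other gene between them. PROPEP1 (AT5G64900) spans chr5:25937078-25938176, PROPEP2 (AT5G64890) chr5:25934568-25935612 and PROPEP3 (AT5G64905) chr5:25939562-25940080. The active peptide lies at the C-terminal end of each precursor, so the last 120 coding bases before the stop codon are shown, with the shared word AGNTCAGG in capitals, which occurs once in each stretch.

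PROPEP1: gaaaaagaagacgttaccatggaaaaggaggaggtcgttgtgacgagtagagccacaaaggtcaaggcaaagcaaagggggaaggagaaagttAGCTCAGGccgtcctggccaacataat

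PROPEP2: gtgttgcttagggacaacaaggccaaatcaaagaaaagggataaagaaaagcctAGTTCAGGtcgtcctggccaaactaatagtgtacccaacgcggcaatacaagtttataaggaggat

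PROPEP3: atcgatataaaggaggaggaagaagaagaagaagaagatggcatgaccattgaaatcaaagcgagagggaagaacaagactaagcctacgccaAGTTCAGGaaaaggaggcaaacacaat

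The word begins 27 bases before the stop in PROPEP1 and PROPEP3 and 66 bases before it in PROPEP2. Over the whole coding sequence PROPEP1 and PROPEP2 were 73.8% identical, PROPEP1 and PROPEP3 63.6%, and PROPEP2 and PROPEP3 61.6%. The longest identical run between any of these pairs was 12 bp, far shorter than a sequencing read.

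PROPEP3 is the precursor gene of the 3 with the highest level in Control. Its counts were 20, 16, 31 and 33 in Control, 4, 3, 2 and 4 in Mlp37347, and 1, 5, 0 and 9 in Mlp124499. In CPM these were 2.65, 1.04, 2.08 and 0.847, then 0.169, 0.155, 0.167 and 0.355, then 0.0907, 0.410, 0 and 0.584. Every effector library was below every Control library, and the 0 in Mlp124499 3 allows a level of up to 0.232 CPM (3 counts of that library, counting error only). PROPEP3 was 7.65-fold lower in Mlp37347 (log2 -2.93 ± 0.70, adjusted p = 0.0225, edgeR). It entered this test through Control alone, since 4 Control libraries and 0 effector libraries reached the minimum, and in the fit with no filter its adjusted p was 0.0370 (log2 -2.92, edgeR). For Mlp124499 the difference was -2.47 ± 0.68 with an adjusted p of 0.0625 in edgeR and 0.0106 in DESeq2. Both fits used the filtered genes, which favoured a fall here too, so these p-values are no independent support for one. In the fit with no filter the Mlp124499 difference was -2.49 (adjusted p = 0.0976, edgeR). The Mlp37347 call was lost when Control 1 (adjusted p = 0.0510), Control 3 (0.0683) or any of Mlp37347 1, 2 and 3 (0.0766 to 0.0851) was left out of the edgeR fit, with log2 fold changes of -2.64 to -2.83. Without all 3 of those Mlp37347 libraries it was -2.14 (adjusted p = 0.416, edgeR).

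PROPEP2 had 28 counts in the 4 Control libraries together, 3 in Mlp37347 and 5 in Mlp124499. By library its level was 0.531, 0.326, 0.873 and 0.154 CPM in Control, 0, 0.103, 0 and 0.0887 CPM in Mlp37347, and 0.0907, 0, 0.0774 and 0.195 CPM in Mlp124499. The 3 libraries with no count allow up to 0.127, 0.251 and 0.246 CPM. All Mlp37347 libraries lay below all Control libraries, whereas Mlp124499 4 lay above Control 4. On the log2(CPM + 0.5) scale, which understates changes of low genes, the difference was -0.78 for Mlp37347 (exact two-sided permutation test, p = 0.0286, the smallest that 70 splits can give; 0.0857 adjusted over the 3 comparisons) and -0.67 for Mlp124499 (exact permutation p = 0.0571, adjusted 0.0857). Neither passed after adjustment.

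PROPEP1 was at 0.929, 0.456, 0.738 and 0.847 CPM in Control. Mlp37347 had 0.804, 0.671, 0.501 and 0.0887 CPM, and Mlp124499 had 0.363, 1.07, 0.387 and 1.10 CPM. The groups overlapped in both comparisons, with log2 differences of -0.44 ± 0.54 and 0.00 ± 0.49 (adjusted p = 0.656 and 0.999, edgeR). These values rest on 58 counts in Control and 39 in each effector line, so the depth limits what could be detected. Of the 5 other PROPEP genes 2 were tested, and PROPEP5 fell in Mlp37347 (log2 -1.55 ± 0.44, adjusted p = 0.0477, edgeR), where 5.42% of all genes fell. This call was lost without any one of 10 of the 12 libraries.

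**Figure D3:**
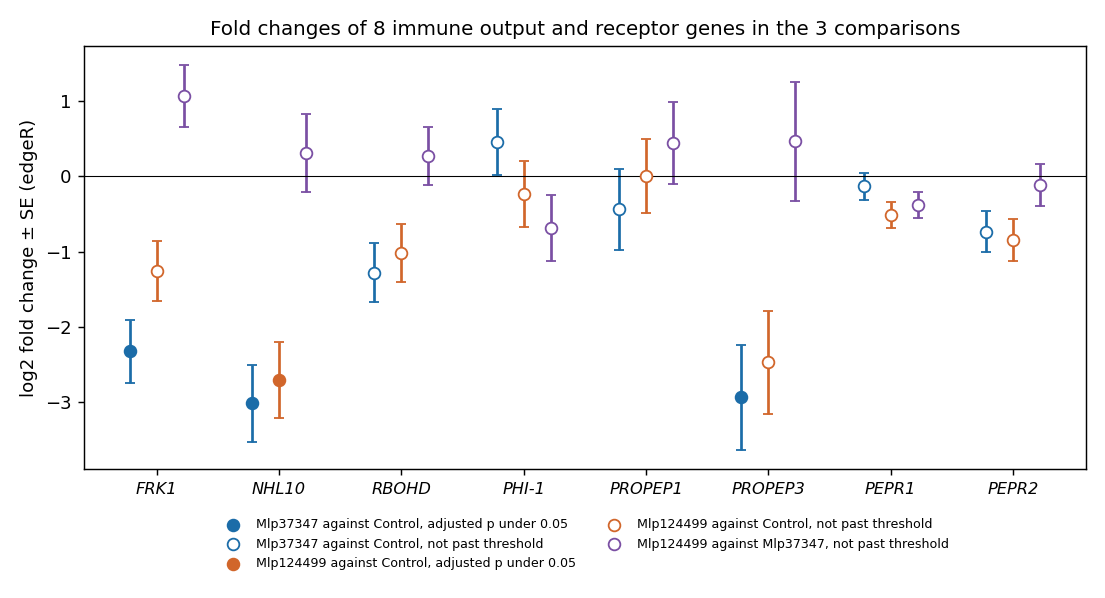
Log2 fold change with its standard error for the 8 genes tested, in the 3 comparisons. The values for FRK1, NHL10 and PROPEP3 lie between -2.32 and -3.01 for Mlp37347 against Control, where PROPEP1 and PEPR1 lie within 1 standard error of 0.

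PEPR1 (AT1G73080, chr1:27484240-27488204, plus strand, 2 coding exons) and PEPR2 (AT1G17750, chr1:6106323-6110120, plus strand, 2 coding exons) encode the leucine-rich repeat receptor kinases that bind Pep peptides. Their coding sequences were 75.5% identical with a longest shared run of 32 bp. PEPR1 was at 38, 39.9, 43.9 and 48.1 CPM in Control, then at 35.6, 33.2, 36.8 and 49.2 CPM (Mlp37347) and at 30.5, 29.2, 23.8 and 35.3 CPM (Mlp124499). All Mlp124499 libraries were below all Control libraries, while the Mlp37347 and Control libraries overlapped. The log2 differences were -0.14 ± 0.18 (adjusted p = 0.674) and -0.52 ± 0.18 (adjusted p = 0.137), in edgeR.

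PEPR2 was the rarer receptor transcript, at 2.39, 1.89, 2.35 and 2.26 CPM in Control. Mlp37347 had 1.48, 1.70, 1.0 and 1.06 CPM, and Mlp124499 had 1.18, 1.07, 1.08 and 1.56 CPM. Every library of both effector lines was below every Control library, yet the log2 differences of -0.74 ± 0.27 and -0.85 ± 0.28 had adjusted p of 0.115 and 0.119 in edgeR. Without the 4th libraries of both effector lines the Mlp124499 difference passed for PEPR1 (adjusted p = 0.0118, edgeR) and for PEPR2 (0.0331). With limma voom PEPR1 passed in Mlp37347 (adjusted p = 0.0285) and in Mlp124499 (0.000628). PEPR2 also passed with limma voom in Mlp37347 (adjusted p = 0.0221) and in Mlp124499 (0.0119). PEPR2 overlaps AT1G17760 on the opposite strand over 14 bp. It also overlaps the long noncoding RNA loci AT1G05327 (739 bp) and AT1G05323 (225 bp) on that strand, which had 0 counts in every group.

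Leaving PROPEP3 aside again, 4 of 7 genes tested had Mlp37347 values entirely below Control (FRK1, NHL10, RBOHD and PEPR2) and 0 entirely above, where 10.8% and 8.41% of all genes did. In Mlp124499, 3 of 7 were entirely below (NHL10, PEPR1 and PEPR2) and 0 entirely above, where 6.64% and 4.31% of all genes were.

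The 2 effector lines were also compared with each other. Of the 8 genes, 0 passed in edgeR, where 1.10% of all genes were lower and 1.59% higher in Mlp124499. An unadjusted p under 0.05 in edgeR was found for 2. DESeq2 called 0 and limma voom called 3, and the shares of all genes called by these tools are not given here. None of the 8 separated the lines without overlap, where 5.32% of all genes were entirely lower and 5.58% entirely higher in Mlp124499. FRK1 was higher in Mlp124499 by 1.06 ± 0.41 (log2, adjusted p = 0.199, edgeR). Leaving out Mlp37347 4, whose FRK1 value was the highest of its line, gave 1.45 with an adjusted p of 0.0319 in edgeR. Leaving out the 4th libraries of both effector lines gave 1.70 (adjusted p = 0.00434, edgeR). The remaining differences were 0.31 ± 0.51 for NHL10, 0.26 ± 0.39 for RBOHD, -0.69 ± 0.44 for PHI-1, 0.44 ± 0.54 for PROPEP1, 0.46 ± 0.78 for PROPEP3, -0.38 ± 0.18 for PEPR1 and -0.12 ± 0.28 for PEPR2, and a missed threshold does not show that the lines act alike.

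**Figure D4:**
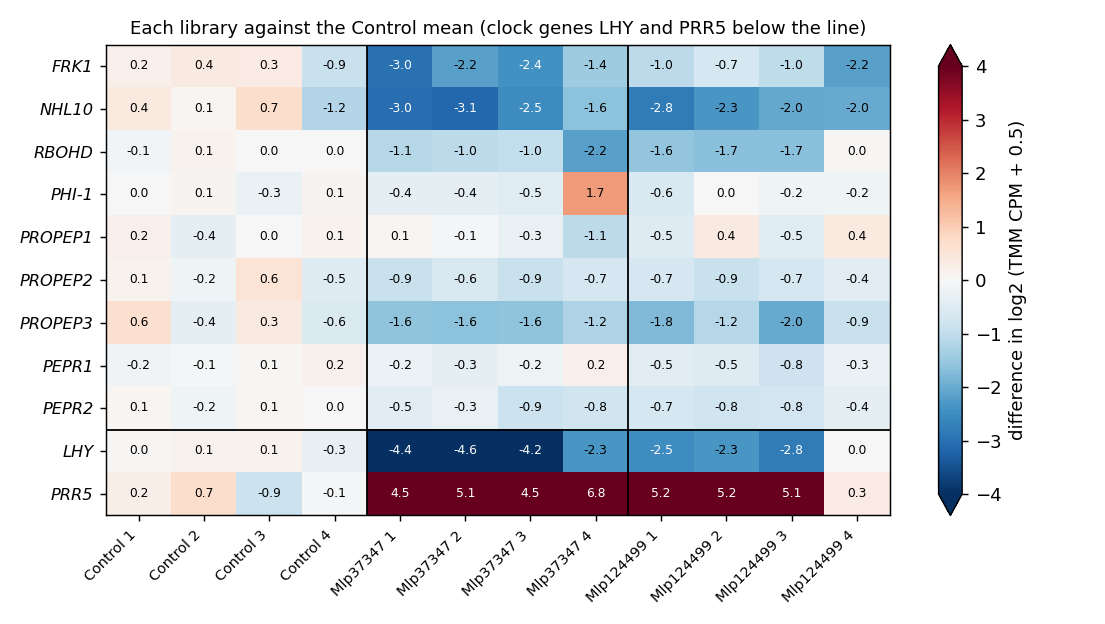
Difference of each library from the Control mean on the log2(CPM + 0.5) scale, for the 9 genes and the clock genes LHY and PRR5. FRK1 in Mlp37347 4 (-1.41) is nearer to Control than in Mlp37347 1 to 3 (-2.17 to -2.97), and RBOHD in Mlp124499 4 (0.05) lies at the Control level, against -1.58 to -1.68 in the other 3 libraries of that line.

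Levels of different genes can be compared per kb of exon. In Control, RBOHD was highest at 24.7 ± 1.69 CPM per kb (SD, n = 4), and its lowest library (22.8) was above the highest of any other of the 9 genes. PHI-1 (13.3 ± 1.61), PEPR1 (11.1 ± 1.17), NHL10 (10.5 ± 4.93) and FRK1 (9.93 ± 3.38) followed, with ranges that overlapped. PROPEP3 was at 3.19 ± 1.65 CPM per kb, and its range of 1.63 to 5.12 overlapped those of NHL10 and FRK1 but not that of PROPEP1 (1.07 ± 0.299). PROPEP2 (0.697 ± 0.458) overlapped both PROPEP1 and PEPR2 (0.598 ± 0.0616), whereas the lowest PROPEP1 library (0.660) was above the highest PEPR2 library (0.644). In Mlp37347, RBOHD (10.2) and PEPR1 (10.1) stood above FRK1 (2.00) and NHL10 (1.34), all as means in CPM per kb. PHI-1 was at 18.2 ± 17.0 CPM per kb there, with 43.8 in Mlp37347 4 and a mean of 9.73 in the other 3 libraries. The coefficient of variation over the 12 libraries was 20.4% for PEPR1 and 33.5% for PEPR2, against 115.6% for NHL10 and 118.1% for PROPEP3.

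Genes whose log2 levels ran most like those of the 9 across the 12 libraries were sought among the 14512 or 14513 other genes with a mean of at least 5 CPM. The nearest to NHL10 were the MAP kinase gene MPK11 (Pearson r = 0.983, Spearman rho = 0.965) and AT1G51890 (0.975 and 0.937). FRK1 was closest to AT4G16960 (r = 0.951) and VIIIA (0.944), RBOHD to SOT16 (0.982) and UNE10 (0.976), and PROPEP3 to TTR1 (0.965) and SGP1 (0.939). PEPR1 was closest to AT1G56140 (r = 0.962) and AT5G01720 (0.957), PEPR2 to AT1G70250 and AT5G55840 (both 0.918), and PROPEP1 to AT1G21740 (0.879) and AT1G12380 (0.854). For PHI-1 the nearest, CINV1 and BPM2, had r of 0.948 and 0.947 but rho of 0.727 and 0.573. These libraries share groups and the 3 that stand apart, so the values are a description without a test. Among the genes themselves, FRK1 and NHL10 had r = 0.847 over the 12 libraries and 0.551 within groups.

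Upstream of these outputs, the list of 16 pattern receptors and co-receptors had 15 genes tested, of which 5 fell and 1 rose in Mlp37347 and 9 fell in Mlp124499 (median log2 -0.58 and -0.80, beside 0.01 and -0.01 over all genes). Over all genes tested, 5.42% fell and 3.19% rose in Mlp37347, and 2.71% fell and 1.56% rose in Mlp124499. The 5 became 2 without any one of Control 1, 2 and 3 or Mlp37347 1, 2 and 3, and 3 without Mlp124499 2, and the 9 became 5 without Mlp124499 2. RLP23, the receptor for a peptide of NLP toxins, fell by 2.91 ± 0.40 on the log2 scale in Mlp37347 (adjusted p = 0.00158, edgeR), and the receptor kinase gene FER rose by 1.08 ± 0.19 (adjusted p = 0.00526, edgeR). The flagellin receptor gene FLS2 had log2 differences of -0.35 ± 0.22 and -0.33 ± 0.22, neither past the threshold. Of 22 cytoplasmic signalling genes, 6 fell in Mlp37347 and 4 in Mlp124499 and 0 rose in either (median log2 -0.14 and -0.45). The 6 became 1 without any one of Control 2, Control 3 or Mlp37347 1, 2 and 3, and 3 without Control 1 or Mlp124499 2. The 4 became 1 without Control 3, Mlp124499 1 or Mlp124499 2, and 7 without Mlp124499 4. MPK11 fell in both (log2 -2.45 ± 0.34, adjusted p = 0.00178, and -2.41 ± 0.34, adjusted p = 0.00395, edgeR), whereas BIK1, the kinase that phosphorylates RBOHD, had differences of 0.12 ± 0.29 and -0.69 ± 0.30, which did not pass.

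The list of other immune output genes had 15 tested, of which 9 fell in Mlp37347 and 6 in Mlp124499, with medians of -1.40 and -1.20 on the log2 scale beside 0.01 and -0.01 over all genes, of which 5.42% fell in Mlp37347 and 2.71% in Mlp124499. The 9 became 3 or 4 without any one of Control 3 or Mlp37347 1, 2 and 3, and 2 genes rose without Mlp37347 4. The 6 became 2 without any one of Control 1, 2 and 3 or Mlp124499 1, 2 and 3, and 3 without any one of Mlp37347 1, 2 and 3. WRKY53 was at 17.6 to 40.5 CPM in Control and at 6.77 to 14.3 CPM in Mlp37347, and fell by 1.86 (log2, adjusted p = 0.00327, edgeR). MYB51, a regulator of indole glucosinolates, fell in both lines (log2 -1.40, adjusted p = 0.00119, and -1.20, adjusted p = 0.00488, edgeR). In the list of LRR kinases similar to FRK1, 5 of 7 tested fell in Mlp37347 and 6 of 7 in Mlp124499 (median log2 -1.83 and -2.32). The 5 became 3 without any one of Control 1, 2 and 3 or Mlp37347 1, 2 and 3, and the 6 stayed at 5 or 6 with any 1 library left out. IOS1, a kinase of this type, was at 37.5 to 62.7 CPM in Control, 7.90 to 18.4 CPM in Mlp37347 and 6.43 to 20.4 CPM in Mlp124499 (log2 -1.86 ± 0.36, adjusted p = 0.00914, and -2.32 ± 0.37, adjusted p = 0.00552, edgeR). Of the leaf, root and flower marker genes, 0 of 9 tested passed in any of the 3 comparisons in edgeR.

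**Figure D5:**
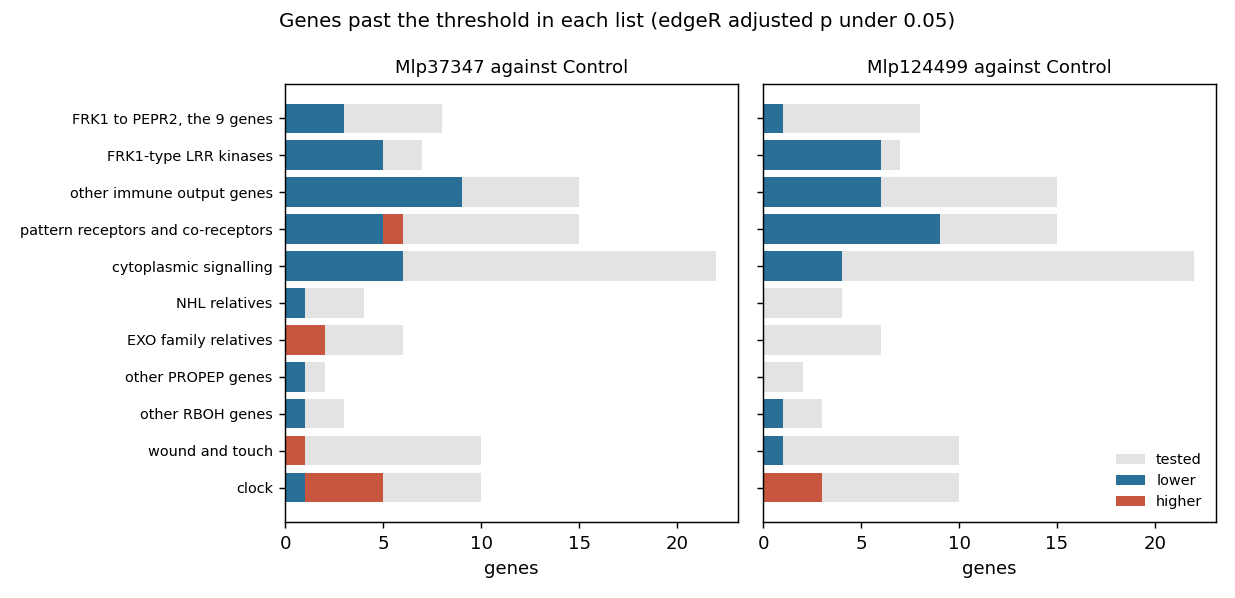
Numbers of genes past the threshold, higher and lower, in each gene list, with the number tested, for the 2 comparisons with Control. In the immune output list 9 of 15 genes tested fell in Mlp37347 and 6 of 15 in Mlp124499.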

How the data were processed

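RNA sequencing covered 12 libraries, 4 for each of 3 transgenic groups. Per the labels' protocols, TruSeq Stranded mRNA libraries were made from 100 ng of total RNA. The deposited values are counts of read pairs per locus, which the authors made after Trimmomatic trimming and TopHat2 2.0.14 alignment to TAIR10, with GenomicAlignments in R 3.2.5, per the submitters' processing notes and the design text of the series; the use of strand is not stated there. A second deposited table holds read numbers and mate inner distances.

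The 9 genes and the gene lists were chosen with earlier results of these data known, so no count over them is independent support. TMM scaling was done with edgeR 4.0.16 (R 4.3.3); 19090 genes passed filterByExpr and entered 1 quasi-likelihood fit of all 12 libraries, with Benjamini-Hochberg adjustment over these genes and a threshold of 0.05. A standard error is the size of the log2 fold change over the root of its F statistic. PROPEP2 was tested by an exact permutation of log2(CPM + 0.5). The procedure was tested on simulated data. Alternatives were RLE and total-count scaling, DESeq2 1.42.0, limma 3.58.1 voom with sample weights, no filter on low counts, 2-group fits, a replicate block, omitted libraries, a threshold of 0.01 and other pseudocounts. Named genes are the 9, the 2 genes most correlated with each, up to 3 of each list with the lowest p, and close relatives of the 9 where they bear on one. FLS2, BIK1 and LHY fall outside this rule. They, PRR5 and ELF4 were chosen after their values were seen. Replicate numbers did not pair the libraries: the 12 correlations of same-numbered libraries were -0.386 to 0.0901.

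Gene positions and sequences come from RefSeq's TAIR10.1, matched by locus identifier; the deposited counts carry no coordinates. Protein sequences are not used here.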

Additional observations from a re-analysis of the deposited data

Results flagged for a closer look

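For each of the 9 genes and 3 groups, 27 sets of 4 libraries in all, the library farthest from its fellows was examined, and 3 sets had a single library set apart by more than Dixon's critical value. Chance alone flags about 1 in 20 such sets. RBOHD was at 91.8 CPM in Mlp124499 4, against 27.3 to 29.4 CPM in the other 3 libraries of that line. PHI-1 was at 54.8 CPM in Mlp37347 4, against 11.6 to 12.6 CPM in the others. PROPEP3 was at 0.355 CPM in Mlp37347 4, against 0.155 to 0.169 CPM in the others, which is a matter of 4 counts against 2 to 4. Both libraries also differed from the rest of their lines in LHY, which was at 470 CPM in Mlp124499 4 and at 92.6 CPM in Mlp37347 4. The part of that difference in the values of RBOHD, PHI-1 and PROPEP3 was not tested.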

How the results depend on the processing

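Most values of the 8 tested genes kept their direction and their side of the threshold: 461 of the values under an alternative did so, 29 newly passed, 12 no longer passed and 24 reversed. Most of the results were not past the threshold in the main fit, so the 461 are largely of that kind. Of the 12, 8 were of PROPEP3 in Mlp37347, which was the same in 14 of 22 alternatives. The number of genes lower in Mlp124499 than in Control, 1, became 3 with DESeq2, 6 with limma voom, 6 without the 4th libraries of both effector lines and 0 at a threshold of 0.01. It ran from 0 (without Mlp124499 2) to 3 (without Mlp124499 4) when single libraries were left out. Each of these counts of 3 or 6 includes PROPEP3, which passed the filter through Control alone. For DESeq2, voom and the fit without the 4th libraries, the share of all genes past the threshold is not given here. The counts under those settings therefore cannot be set against it. The number lower in Mlp37347, 3 with PROPEP3, became 7 with voom and 0 without the 3 libraries with a long mate inner distance, where 1 gene was higher; leaving out single libraries gave 2 to 4. Between the effector lines, 0 higher and 0 lower became 1 and 2 with voom, 1 and 1 without the 4th libraries, and 0 and 1 without the long-distance libraries; leaving out single libraries gave 0 to 1 higher.

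Reversed log2 values were as follows, and the cause was not tested. With voom, PHI-1 was -0.45 in Mlp37347, which passed the threshold (adjusted p = 0.0150, limma voom), and 0.18 between the lines. PROPEP1 was 0.22 in Mlp37347 with voom. RBOHD was -0.53 between the lines with voom and also passed (adjusted p = 0.00168, limma voom). Without the 4th libraries, PHI-1 was -0.41 in Mlp37347 and 0.21 between the lines, and PROPEP1 was -0.23 in Mlp124499 and -0.13 between the lines. RBOHD was then -0.59 between the lines, which passed (adjusted p = 0.00383, edgeR). Without the long-distance libraries, PEPR1 was 0.23 in Mlp37347, and NHL10, PEPR2 and PROPEP3 were -0.76, 0.20 and -0.34 between the lines. With total-count scaling, PEPR2 was 0.0207 between the lines and PROPEP1 was -0.0472 in Mlp124499. Leaving out single libraries gave -0.41 to 0.71 for PHI-1 in Mlp37347, -0.23 to 0.21 for PROPEP1 in Mlp124499, and, between the lines, -0.90 to 0.22 for PHI-1, -0.25 to 0.0409 for PEPR2, -0.26 to 0.86 for PROPEP3 and -0.38 to 0.45 for RBOHD.

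With the replicate block, PROPEP1 in Mlp124499 was -0.0341 and PROPEP3 in Mlp37347 no longer passed (adjusted p = 0.0714, edgeR), so 2 genes were lower there; the numbers are only names here, since no same-numbered libraries correlated above 0.1. Depth limits PROPEP1, PROPEP2 and PROPEP3, with 3 to 100 counts per group. Without a filter on low counts, PROPEP2 was -3.08 in Mlp37347 (adjusted p = 0.0861, edgeR).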

Other observations

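Relatives of the 9 genes outside the pathway itself were also read. In the EXORDIUM family of PHI-1, 2 of 6 relatives tested rose in Mlp37347 and 0 in Mlp124499, where 3.19% and 1.56% of all genes rose. EXL3 was at 44.5 to 80.7 CPM in Control and at 477, 383, 455 and 133 CPM in the 4 Mlp37347 libraries, and rose by 2.62 ± 0.36 on the log2 scale (adjusted p = 0.00178, edgeR). EXL3 was lower in Mlp124499 than in Mlp37347 (log2 -2.48 ± 0.36, adjusted p = 0.00420, edgeR). EXL5 rose as well in Mlp37347 (log2 1.95 ± 0.24, adjusted p = 0.00112, edgeR). Of 4 NHL relatives, NHL1 fell in Mlp37347 (log2 -0.98 ± 0.17, adjusted p = 0.00526, edgeR), where 5.42% of all genes fell. NHL1 was higher in Mlp124499 than in Mlp37347 by 0.73 (adjusted p = 0.0412, edgeR), as were 1.59% of all genes.

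Wound and touch genes gave 1 that rose (OPR3) of 10 tested in Mlp37347 and 1 that fell (TCH3) in Mlp124499, beside 3.19% of all genes that rose in Mlp37347 and 2.71% that fell in Mlp124499. The OPR3 call was lost without any one of the 4 Control libraries or Mlp37347 1, 2 and 3, and that of TCH3 without any one of Control 1, 2 and 3 or Mlp124499 1, 2 and 3. Without Mlp37347 4, 2 rose in Mlp37347; without Mlp124499 4, 1 fell in Mlp37347 and 2 fell in Mlp124499. Of 10 clock genes, 4 rose and 1 fell in Mlp37347, where 3.19% of all genes rose and 5.42% fell. One that rose, ELF4, was at 0.0651 to 0.257 CPM in Control, below the filter's minimum of 0.713 CPM. ELF4 entered the test through the effector lines, which favoured a rise, so its call is no independent support for one. In Mlp124499, 3 rose and 0 fell, where 1.56% of all genes rose and 2.71% fell. Leaving out single libraries gave 3 to 6 that rose in Mlp37347. The 1 that fell there became 2 without Mlp124499 3 or Mlp124499 4 and 3 without Mlp37347 4, and without Mlp124499 4 the Mlp124499 counts became 5 that rose and 2 that fell.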
